A study of Mus musculus with 160 samples.

Results

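Striatum and cortex differ in many genes, and the question here was how far that difference changes in a mouse model of Huntington's disease. The quantity tested was the R6/2 minus wild-type difference in striatum less the same difference in cortex, called the interaction. It is also the striatum minus cortex difference in R6/2 mice less that in wild-type mice. A value below 0 means that striatum lost expression relative to cortex in R6/2. It was measured in 32 of the 160 libraries of the series: 8 wild-type and 8 R6/2 mice, each with 1 cortical and 1 striatal library. All 16 mice were on a C57BL/6J background and received vehicle orally, with 4 males and 4 females per genotype; R6/2 mice carry the transgene Tg(HDexon1)62Gpb. Of the R6/2 mice, 16 more received CHDI-00390576, named in the title as a class IIa HDAC inhibitor, at 30 or 100 mg/kg, and these serve as a comparison. Ages are not in the labels. The animal number in the labels ties the libraries of a mouse together, and mice are named below by sex and by the number of their cortical library.

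As background, R6/2 mice express a fragment of human huntingtin with an expanded CAG repeat from a transgene of exon 1, under the human promoter, in many tissues. Striatum consists mostly of GABAergic projection neurons, which send either the direct pathway, with dopamine D1 receptors, or the indirect pathway, with D2 and adenosine receptors. Cortex consists of layers of glutamatergic projection neurons with interneurons among them. In bulk tissue, fewer cells of a type and less RNA per cell cannot be told apart.

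The libraries held 30.1 to 38.9 M expected counts each. In wild-type mice the summed level of 22 genes of projection neurons ran from 14408 to 19553 CPM in striatum and from 2013 to 3234 in cortex (CPM, counts scaled to a common library size), and that of 16 genes of cortical excitatory neurons from 2876 to 4567 in striatum and from 6223 to 7468 in cortex. Both region labels thus held when set against these markers. The striatal libraries nevertheless held cortical transcripts in very unequal amounts: Slc17a7, the vesicular glutamate transporter of cortical neurons, ran from 85.8 to 572 CPM in wild-type and from 9.86 to 350 in R6/2 striatum, against 867 to 1176 and 682 to 1036 in cortex. The cortical libraries in turn held transcripts of the indirect pathway in unequal amounts. The summed level of 6 such genes ran from 70.7 to 253 CPM in wild-type and from 24.5 to 48.5 in R6/2 cortex. In striatum it ran from 1271 to 2032 and from 367 to 728. The part of carry-over in either direction in the results was not tested. Of the vehicle libraries 1 stood apart, the striatal library of R6/2 male 4. In it 20.8% of counts came from genes with transcripts of at least 5000 bases and 17.5% from mitochondrial genes. The medians of its group were 35.2% and 9.71%. Among the dosed mice, the striatal libraries of female 2 and male 4 at 100 mg/kg held 25.81% and 24.59% from such long transcripts, and they were kept. Both brain libraries of wild-type female 3 went against their label in their sex genes. In 4 of the wild-type mice and none of the R6/2 mice on vehicle, a library's column name in the deposited table has a different form. Counts over all genes and for the lists are given below with values under some or all of the 13 alternatives, some of which leave out these vehicle mice.

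The interaction passed the test in 1608 of 17576 genes (9.15%; edgeR quasi-likelihood test, adjusted p under 0.05, mouse as a block). It was lower in 1014 genes (5.77%) and higher in 594 (3.38%), and the median over all genes was -0.01 on the log2 scale. Without R6/2 male 4 it was lower in 1988 genes and higher in 1381. These included all 1014 of the former and 590 of the latter. Without wild-type female 3 the counts were 836 and 486. The division into lower and higher depended on scaling: with library totals alone 566 genes were lower and 789 higher. With FPKM values, where scaling, test and filter all differ, 518 were lower and 722 higher. The striatum and cortex themselves differed in 8999 genes in wild-type mice (51.2%) and in 7726 in R6/2 mice (44.0%).

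The lower and the higher genes came about in several ways. Fitted region by region, the genotype effect fell in 3445 of 17428 genes in striatum (19.8%) and rose in 3943 (22.6%), and in cortex it fell in 4518 of 17508 genes (25.8%) and rose in 4921 (28.1%). Of the 1014 genes with a lower interaction, 407 fell in both regions, 306 fell past the test in striatum alone, 174 rose past it in cortex alone and 67 fell in striatum while they rose in cortex. Of the 594 with a higher interaction, 186 fell past the test in cortex alone, 128 rose past it in striatum alone, 125 rose in both, 71 fell in both and 64 rose in striatum while they fell in cortex. Without the striatal libraries of low RNA quality the genotype effect in striatum passed the test in 9480 genes, against 7388 with them. Those left out were R6/2 male 4 on vehicle and female 2 and male 4 at 100 mg/kg. A call in one region alone is not a test of the difference between regions, which the interaction gives.

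Genes shared by both kinds of striatal projection neuron held the most genes with a lower interaction among the 24 lists examined. Of 22 genes, all tested and all at least 1 log2 unit higher in wild-type striatum than cortex, the interaction was lower in 10 and higher in 1. Over all genes the shares were 5.77% and 3.38%. Their median interaction was -0.53, against -0.01 over all genes. In striatum 20 of the 22 fell in R6/2 and none rose, with a median of -1.42. In cortex 21 fell, with a median of -0.85. The lower genes include the cyclic nucleotide enzymes Adcy5, Pde10a and Pde1b. Gnal (-0.22 ± 0.11) and Gng7 (-0.20 ± 0.18) of the same list did not pass the test (edgeR adjusted p = 0.292 and 0.62). Without R6/2 male 4, 12 genes were lower. The count was 10 in each of 10 other alternatives, 11 with all arms fitted together, and 6 in males alone.

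**Figure D1:**
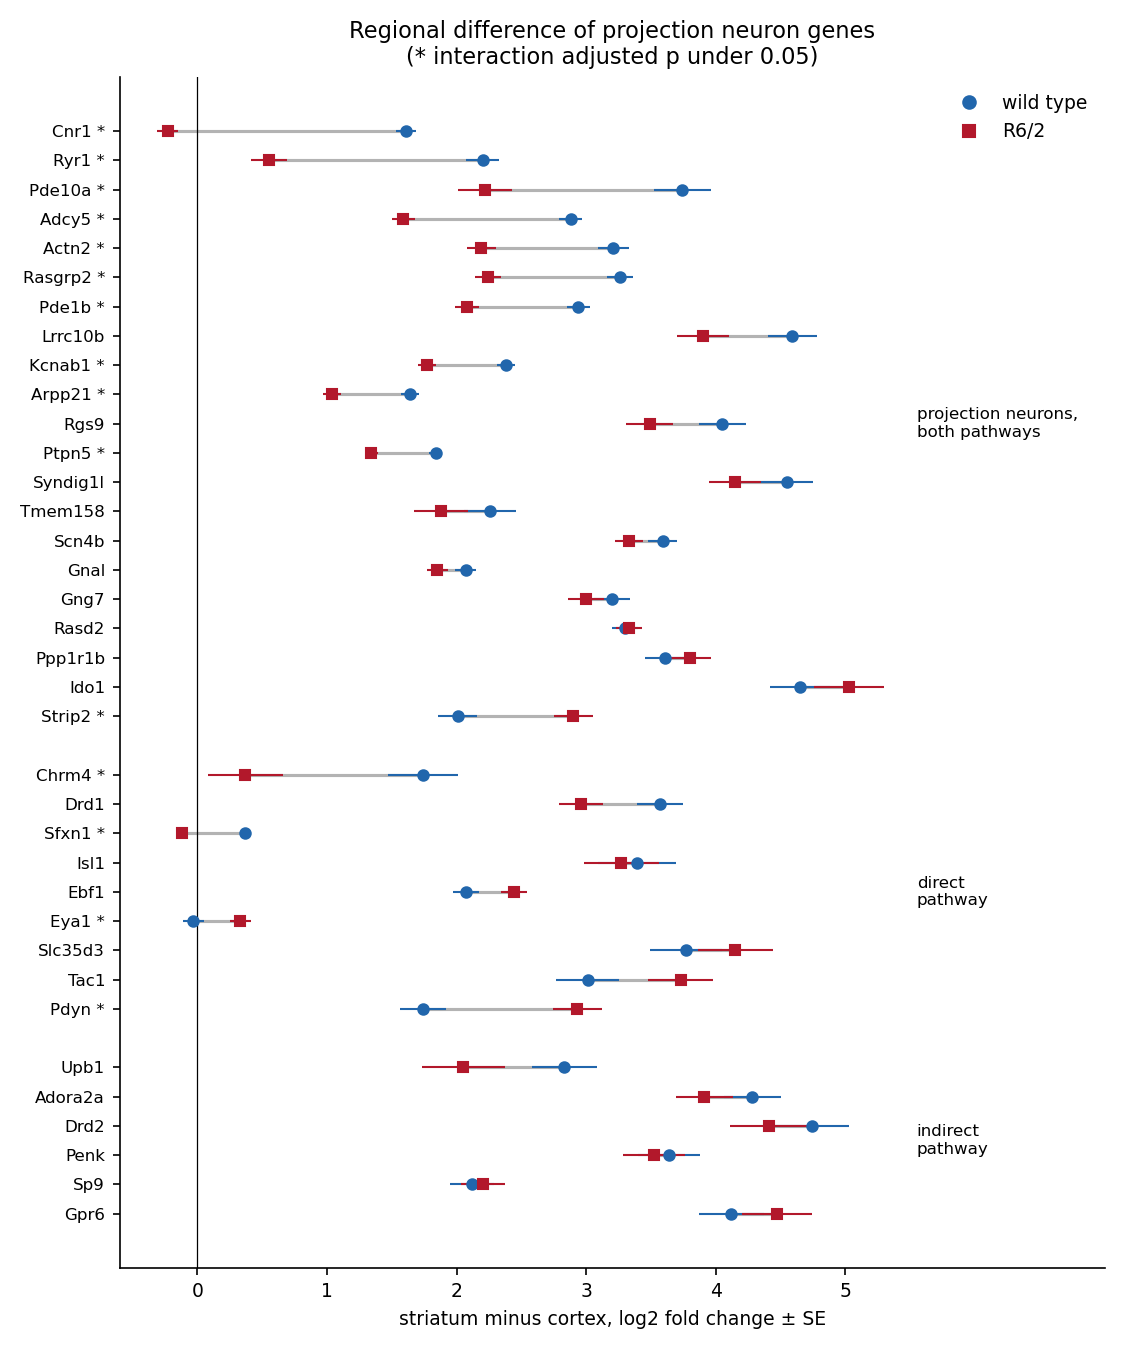
Striatum minus cortex difference (log2 fold change ± SE, n = 8 mice per genotype) of the genes of striatal projection neurons reported here in wild-type (circles) and R6/2 mice (squares), grouped by list; an asterisk marks an interaction past the test. Cnr1, Ryr1, Pde10a and Adcy5 have the longest distances to the left among the genes of both pathways, while no gene of the indirect pathway carries an asterisk.

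Cnr1 encodes the CB1 cannabinoid receptor, found on projection neuron axons, and its regional difference in R6/2 mice was small and below 0. In wild-type striatum it stood at 429, 491 and 586 CPM (lowest, median and highest of 8 mice) and in R6/2 striatum at 71.4, 115 and 135. In cortex it stood at 149, 157 and 199 in wild-type and at 119, 129 and 142 in R6/2 mice. Wild-type striatum lay above all other libraries, and R6/2 striatum overlapped R6/2 cortex. The regional difference was 1.61 ± 0.08 (SE) in wild-type and -0.23 ± 0.08 in R6/2 mice, and the interaction was -1.84 ± 0.11 (edgeR adjusted p = 3.39e-08). The R6/2 value includes R6/2 male 4 at -0.90, with a median of -0.19 over single mice. Without that mouse the interaction was -1.74. In dosed R6/2 mice the regional difference did not pass the test at 30 or 100 mg/kg (edgeR adjusted p = 0.272 and 0.0735).

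Adcy5, the main adenylyl cyclase of striatum, kept a regional difference of reduced size. Its level was 1086, 1349 and 1495 CPM in wild-type striatum and 369, 443 and 532 in R6/2 striatum, with 144, 178 and 249 in wild-type and 133, 150 and 160 in R6/2 cortex. The R6/2 striatal libraries lay between the cortical ones and wild-type striatum, overlapping neither. The interaction was -1.29 ± 0.12 (edgeR adjusted p = 3.27e-06).

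Pde10a, the phosphodiesterase that degrades cAMP and cGMP in these neurons, ran from 1786 to 2239 CPM in wild-type striatum and from 103 to 562 in R6/2 striatum, where 103 was far below the median of 451. Its interaction was -1.52 ± 0.28 (edgeR adjusted p = 0.00171) with R6/2 male 4 and -1.29 (6.01e-05) without. Ryr1, a calcium release channel of the endoplasmic reticulum, fell in both regions, from a median of 140 to 8.73 CPM in striatum and from 30.2 to 5.27 in cortex. Its interaction was -1.64 ± 0.19 (edgeR adjusted p = 2.01e-05). The remaining lower genes were Rasgrp2, a Rap guanine nucleotide exchange factor (-1.02 ± 0.13), Actn2, an actin crosslinker (-1.02 ± 0.15), Pde1b, a calmodulin-dependent phosphodiesterase (-0.86 ± 0.12), Kcnab1, a potassium channel beta subunit (-0.61 ± 0.09), Arpp21, a cAMP-regulated phosphoprotein (-0.59 ± 0.10) and Ptpn5, the striatal-enriched phosphatase STEP (-0.50 ± 0.07).

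**Figure D2:**
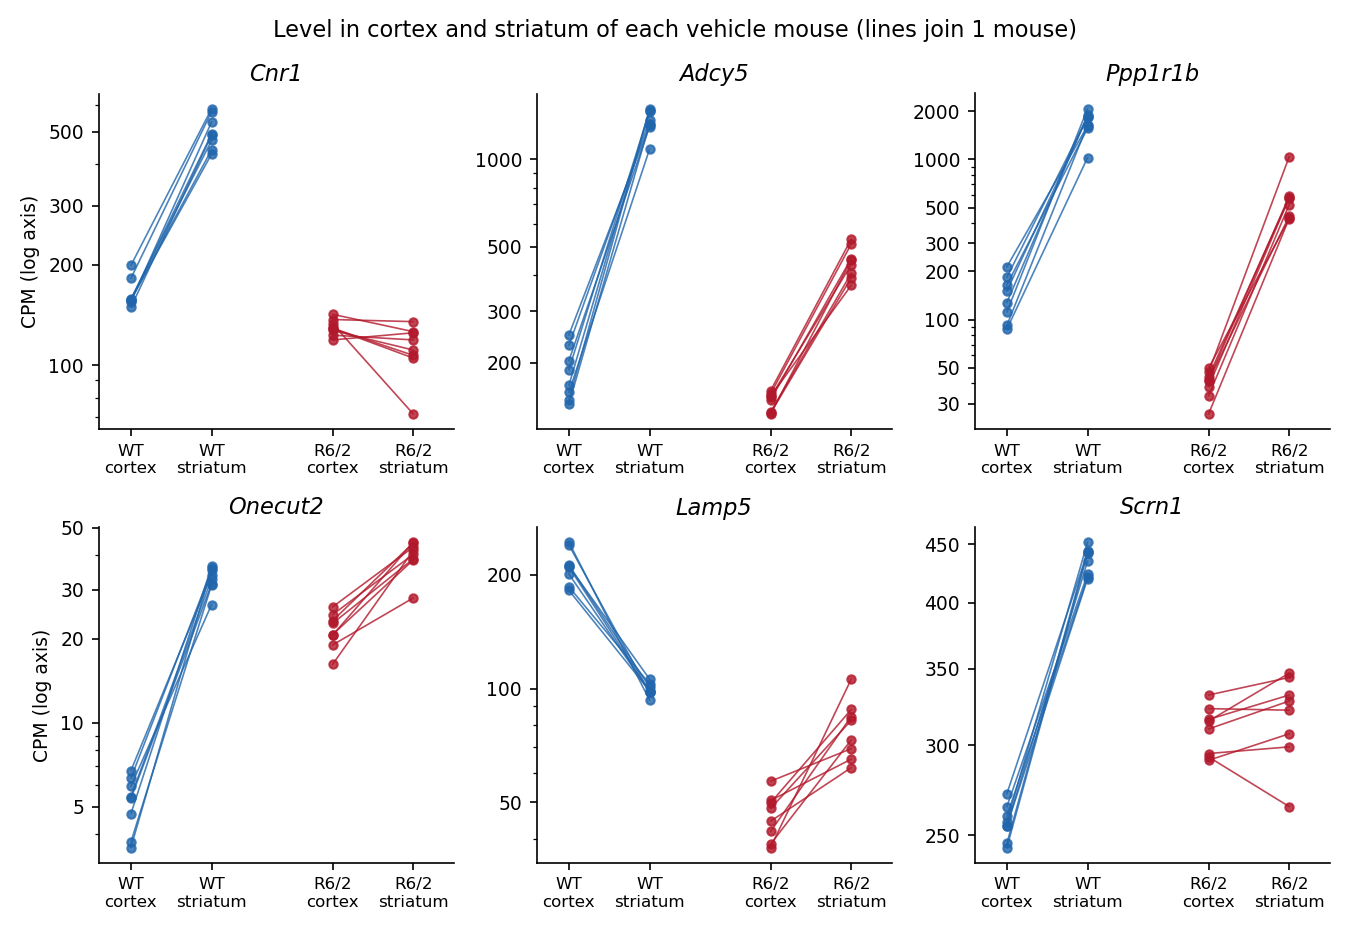
Level of 6 genes (CPM, log axis) in the cortical and striatal library of each vehicle mouse, with a line joining the libraries of 1 mouse (blue, wild type; red, R6/2; n = 8 each). The lines flatten in R6/2 for Cnr1, Onecut2 and Scrn1, turn round for Lamp5, and run about parallel to wild type for Ppp1r1b.

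Other hallmark genes of the same neurons fell in both regions, with an interaction that did not pass the test. Ppp1r1b, which encodes DARPP-32, fell from a median of 1743 to 549 CPM in striatum and from 139 to 41.8 in cortex. Its regional difference was 3.61 ± 0.16 in wild-type and 3.80 ± 0.16 in R6/2 mice, with an interaction of 0.19 ± 0.20 (edgeR adjusted p = 0.683), and the single-mouse differences overlapped. Scn4b, a sodium channel beta subunit, fell by 3.38 in striatum and by 3.18 in cortex on the log2 scale, with an interaction of -0.25 ± 0.14 (edgeR adjusted p = 0.359). Rasd2, which encodes the small GTPase Rhes, had an interaction of 0.03 ± 0.13 (edgeR adjusted p = 0.949). Strip2, of the striatin-interacting complex, was the gene with a higher interaction, at 0.90 ± 0.20 (edgeR adjusted p = 0.00828): its level stood at a median of 172 CPM in wild-type and 171 in R6/2 striatum and fell in cortex from 38.1 to 23.6.

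Of the 7 indirect pathway genes 6 were tested (Gpr52 was not), and the interaction passed the test in 0 of them by edgeR, by DESeq2 and in the FPKM fit, with an unadjusted p under 0.05 in 0. Whether the lists of both pathways differ from each other was not tested. Penk, the enkephalin precursor, stood at 896, 1173 and 1363 CPM in wild-type and at 220, 280 and 594 in R6/2 striatum, and in cortex at 52.7, 86.9 and 191 and at 15.6, 26.4 and 33.7. The groups were apart in both regions, and the interaction was -0.12 ± 0.31 (edgeR adjusted p = 0.897). The median genotype effect of the list was -1.80 in striatum and -1.84 in cortex. Drd2, the D2 receptor, had an interaction of -0.33 ± 0.39, Adora2a, an adenosine receptor, of -0.37 ± 0.28, and Gpr6, an orphan receptor, of 0.35 ± 0.35. Levels of these genes in cortex were low, with a wild-type median of 6.1 CPM for Drd2 and 14.6 for Adora2a, and the SEs are wide. The part of striatal tissue in these cortical levels was not tested.

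In the direct pathway list the interaction was lower in 2 and higher in 2 of 9 genes (5.77% and 3.38% over all genes), and over the alternatives in 1 to 2 and in 0 to 2. Chrm4, the muscarinic M4 receptor, was lower (-1.37 ± 0.39, edgeR adjusted p = 0.0349): R6/2 striatum ran from 0.89 to 19 CPM and wild-type striatum from 37.4 to 59.2, and without R6/2 male 4 the value was -1.05 (7.03e-07). Sfxn1, a mitochondrial serine transporter, was lower by a small amount (-0.49 ± 0.06, edgeR adjusted p = 3.93e-05). Pdyn, the dynorphin precursor, was higher (1.18 ± 0.25, edgeR adjusted p = 0.00478): its striatal median was 90.8 CPM in wild-type and 65.6 in R6/2 mice, and its cortical median 27.2 and 7.68. Its regional difference therefore widened, from 1.74 ± 0.18 to 2.93 ± 0.19. The call of Pdyn was lost in females alone, in males alone and without the 4 wild-type mice of the other column form. Eya1, a transcriptional coactivator, was higher by 0.37 ± 0.11. Drd1 had a value of -0.61 ± 0.23 and Tac1, the substance P precursor, of 0.72 ± 0.32, and neither passed the test (edgeR adjusted p = 0.116 and 0.211).

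Of 15 striatal transcription factors, the interaction was lower in Meis2 (-0.44 ± 0.12, edgeR adjusted p = 0.0238) and Rxrg (-0.84 ± 0.25, 0.0422) and higher in none. Without R6/2 male 4 it was lower in 4, and in 0 without wild-type female 3, with library totals, with FPKM values and in either sex alone, so that both calls were lost there. In wild-type mice 13 of the 15 were at least 1 log2 unit higher in striatum. Bcl11b, which encodes CTIP2, fell by 0.65 in striatum and by 0.42 in cortex, and Foxp1 by 0.52 and 0.29. Among 7 genes of striatal cholinergic interneurons Ache, acetylcholinesterase, was lower (-0.42 ± 0.07, edgeR adjusted p = 0.00115). Chat, the acetylcholine-synthesising enzyme, had a value of -1.23 ± 0.50 (0.155), and Slc5a7, the choline transporter, of -1.26 ± 0.39 (0.0511); 1 R6/2 striatal library held Chat at 0.364 CPM against a median of 6.15. Without R6/2 male 4, 3 of the 7 genes were lower, with Slc18a3, the vesicular acetylcholine transporter, at -1.21 (0.0393) and Slc5a7 at -1.10 (0.0466) beside Ache. The count was 2 by DESeq2, with all arms fitted together and with FPKM values, and 0 in females.

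The cortical lists held 10 to 16 genes each, and their counts stand against 3.38% higher and 5.77% lower over all genes. Of 10 genes of upper layers, the interaction was higher in 5 and lower in none, with a median of 0.36. It was higher in 6 without R6/2 male 4, in 3 in females, in 1 in males and in 3 without the 4 wild-type mice of the other column form. All 10 fell in cortex. Lamp5, a membrane protein of upper layer neurons and some interneurons, stood at 182, 211 and 244 CPM in wild-type and at 38, 46.4 and 56.9 in R6/2 cortex, and at 93.3, 98.5 and 106 in wild-type and 61.8, 77.8 and 106 in R6/2 striatum. The cortical groups lay far apart. The striatal ones overlapped only through R6/2 male 4 (106 CPM), while the other R6/2 striata ran from 61.8 to 88.1, below wild type. Lamp5 fell past the test in striatum too, by a smaller amount (-0.32 ± 0.08, against -2.19 ± 0.08 in cortex). The regional difference turned round, from -1.08 ± 0.10 to 0.76 ± 0.10, with an interaction of 1.84 ± 0.14 (edgeR adjusted p = 7.02e-07). Stard8, a GTPase-activating protein, had 1.13 ± 0.15 (8.36e-05), Scnn1a 0.74 ± 0.17 (0.00959), Cux2, a homeodomain factor of upper layers, 0.44 ± 0.12 (0.0283) and Cux1 0.35 ± 0.06 (0.000928).

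Of 14 deep layer genes the interaction was higher in Etv1 (0.40 ± 0.09, edgeR adjusted p = 0.00627) and lower in none, and without R6/2 male 4 it was higher in 2 and lower in 1. Of 16 genes of cortical excitatory neurons it was lower in Lhx2 and higher in none, and the median was -0.09. Lhx2 lost its call in 4 of 13 alternatives. Without R6/2 male 4, Nrgn, neurogranin, was also lower (-0.58, edgeR adjusted p = 0.0109) and Camk2a, a calcium-dependent kinase subunit, was higher (0.30, 0.000934). Slc17a7, Tbr1 and Neurod6 had values from -0.38 to -0.07 with SEs from 0.52 to 0.60, beside the unequal cortical transcripts in striatal libraries given above. Of 13 tested interneuron genes (Tac3 was not tested), Gad1, the GABA-synthesising enzyme, was higher (0.63 ± 0.11, edgeR adjusted p = 0.00113), as was Reln (0.60 ± 0.14, 0.00888), and over the alternatives 0 to 3 of the 13 were higher. Gad1 fell in cortex from a median of 355 to 206 CPM, while its striatal median was 605 in wild-type and 505 in R6/2 mice.

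Of 27 potassium channel genes the interaction was lower in 8 and higher in 1, against 5.77% and 3.38% over all genes. It was lower in 10 and higher in 2 without R6/2 male 4, lower in 7 without wild-type female 3, in 6 without the mice of the other column form, in 5 with library totals or FPKM values and in 1 in males. Kcnj4, an inward rectifier, was the lowest at -0.74 ± 0.08 (edgeR adjusted p = 9.42e-06), with 130, 160 and 185 CPM in wild-type and 59, 69.4 and 82.2 in R6/2 striatum. In cortex its levels were 68.3, 90.5 and 101 and 58.5, 65.6 and 72.8, so that R6/2 striatum and R6/2 cortex overlapped. Kcna4, Kcnd2, Kcnh3, Kcnip3, Kcnk2 and Kcnq3 lay between -0.59 and -0.32, and Kcnab1 is given above. Kcnip2 and Kcnh4 fell in both regions and had values of -0.01 ± 0.12 and 0.03 ± 0.13. Kcna1 was higher by 0.35 ± 0.07. Of the 27, 20 fell in striatum and 22 in cortex.

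In some genes the interaction went with a rise in at least 1 region. Onecut2, a developmental transcription factor, stood in wild-type cortex at 3.58, 5.41 and 6.75 CPM and in R6/2 cortex at 16.2, 21.7 and 26. In striatum it stood at 26.5, 33.3 and 36.3 and at 28, 40.7 and 44.3. The cortical groups were apart. The striatal ones overlapped only through R6/2 male 4 (28 CPM), while the other R6/2 striata ran from 38.3 to 44.3, above wild type. The genotype effect in striatum, with that library, did not pass the test (0.28 ± 0.12, edgeR adjusted p = 0.0563). The regional difference narrowed from 2.67 ± 0.12 to 0.88 ± 0.11 (interaction -1.79 ± 0.15, edgeR adjusted p = 1.14e-06). Wt1 and Onecut1, also developmental regulators, went the other way, with interactions of 2.82 ± 0.46 and 2.34 ± 0.69; both were below 0.5 CPM in all wild-type libraries, where counts are few. Of 19 such regulators 9 were tested, and of the 10 others none passed the filter on low counts. Among the 9 the interaction was lower in 1 and higher in 2, against 5.77% and 3.38% over all genes. Without R6/2 male 4 these counts were the same, and without wild-type female 3 it was higher in 1. In females 0 were higher. Tnnt2, cardiac troponin T, rose in striatum from a median of 2.79 to 6.49 CPM and had an interaction of 1.46 ± 0.17 (edgeR adjusted p = 1.99e-05).

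**Figure D3:**
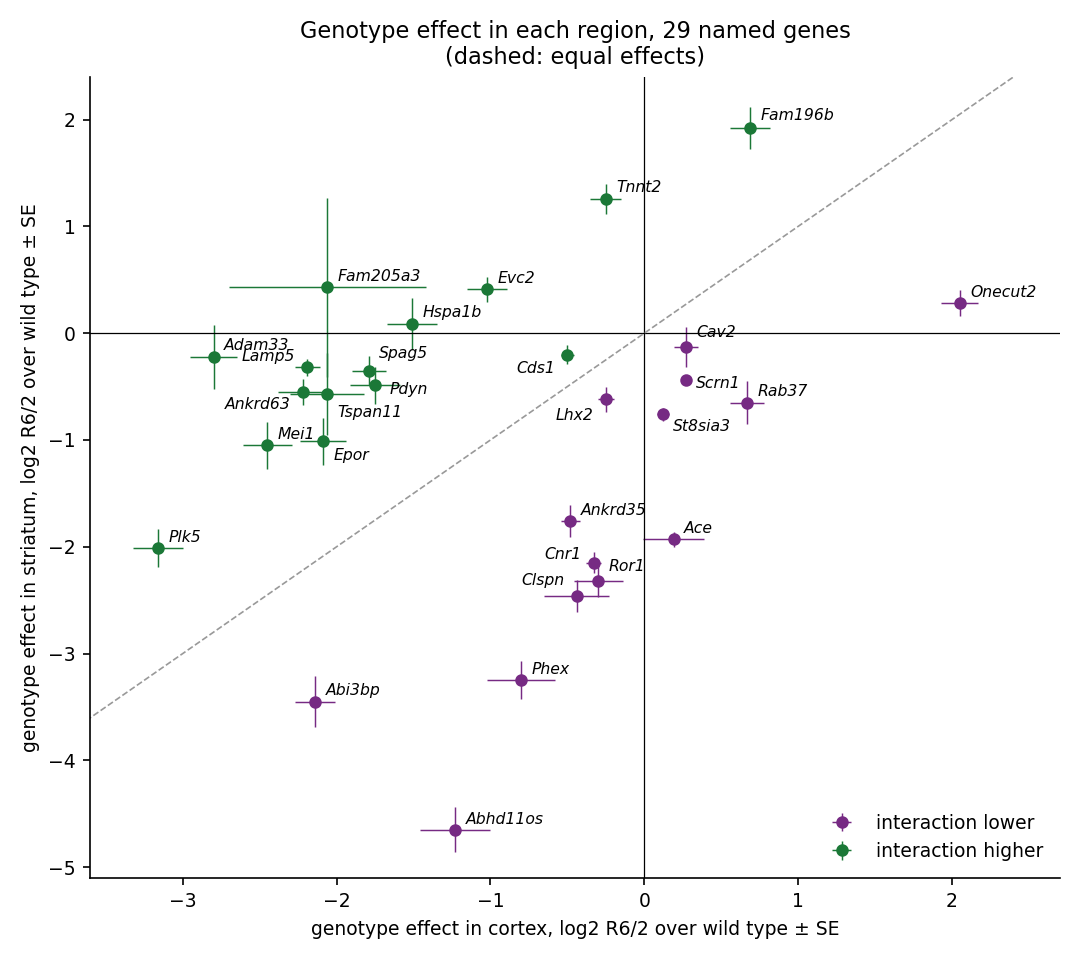
Genotype effect in cortex (horizontal) and in striatum (vertical), log2 R6/2 over wild type ± SE from fits of 32 libraries per region, for the 29 genes named by rule; purple, interaction lower; green, interaction higher; dashed, equal effects. Lower genes such as Cnr1, Ror1 and Ace lie far down with little change in cortex, and higher genes such as Lamp5, Adam33 and Spag5 lie far left with little change in striatum.

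Among striatum-enriched genes at large, the lowest interactions besides those of Cnr1 and Onecut2 were in Ror1, a Wnt5a receptor (-2.05 ± 0.23), Clspn, claspin of the replication checkpoint (-2.12 ± 0.30), Ace, angiotensin-converting enzyme (-2.16 ± 0.25), Phex, an endopeptidase (-2.48 ± 0.26), and Abhd11os (-3.49 ± 0.23), with edgeR adjusted p from 1.04e-07 to 0.000152. Ace turned round: it stood at 37.2, 41.9 and 49.2 CPM in wild-type and at 9.75, 11.2 and 11.8 in R6/2 striatum, and at 11.5, 14.3 and 28.6 and at 13.9, 17.5 and 31.8 in cortex. Phex ran from 7.66 to 14.3 CPM in wild-type and from 0.7 to 1.35 in R6/2 striatum, and its regional difference narrowed from 3.62 ± 0.17 to 1.14 ± 0.19. Abhd11os is annotated as an opposite strand transcript, and whether counting used strand is not stated in the labels. At the other end were Ankrd63 (1.62 ± 0.20), Pdyn and Epor, the erythropoietin receptor (0.95 ± 0.20). Ankrd63 stood at a median of 142 and 99 CPM in wild-type and R6/2 striatum and of 30.6 and 7.06 in cortex.

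Among cortex-enriched genes the highest interactions were in Fam205a3 (3.90 ± 1.03), Adam33, a metalloprotease (2.61 ± 0.32), Lamp5, Tspan11, a tetraspanin (1.64 ± 0.31), Hspa1b, an inducible Hsp70 (1.58 ± 0.25), Tnnt2 and Spag5, a spindle protein (1.45 ± 0.12). Spag5 fell in cortex from 21.4, 28.4 and 30.7 CPM to 6.16, 7.51 and 9.82 and stood at 3.54, 5.16 and 7.38 and at 3.25, 3.99 and 5.45 in striatum, so that the cortical groups were apart and the striatal ones overlapped. Fam205a3 and Hspa1b have near-identical copies among which reads can be split, and Fam205a3 lost its call in 4 of 13 alternatives. The lowest were Cav2, caveolin 2 (-0.44 ± 0.13, edgeR adjusted p = 0.0423), Lhx2 (-0.39 ± 0.10) and Cds1, which already lay above 0 (0.29 ± 0.08). Cav2 lost its call in 10 of 13 alternatives.

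The promoter of a gene of each direction is shown, Adcy5 with a lower and Spag5 with a higher interaction, because each has a single promoter in the RefSeq table (GRCm38.p6, plus strand, 250 bases before to 50 after the start; chr16:35154614-35154913 and chr11:78301341-78301640). CG pairs are in capitals; Adcy5 holds 44 and Spag5 23, against a median of 7 over 32851 promoters. Neither window holds TATAAA or TGACGTCA (a cAMP response element) on either strand; 13.6% and 1.79% of all promoters do.
Adcy5: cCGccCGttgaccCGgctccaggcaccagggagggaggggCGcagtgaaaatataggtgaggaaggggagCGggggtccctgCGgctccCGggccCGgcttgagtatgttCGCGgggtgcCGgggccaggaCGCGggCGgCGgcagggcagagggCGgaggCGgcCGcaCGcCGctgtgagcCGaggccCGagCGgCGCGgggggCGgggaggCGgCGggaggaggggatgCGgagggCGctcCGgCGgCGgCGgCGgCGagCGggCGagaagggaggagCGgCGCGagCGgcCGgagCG
Spag5: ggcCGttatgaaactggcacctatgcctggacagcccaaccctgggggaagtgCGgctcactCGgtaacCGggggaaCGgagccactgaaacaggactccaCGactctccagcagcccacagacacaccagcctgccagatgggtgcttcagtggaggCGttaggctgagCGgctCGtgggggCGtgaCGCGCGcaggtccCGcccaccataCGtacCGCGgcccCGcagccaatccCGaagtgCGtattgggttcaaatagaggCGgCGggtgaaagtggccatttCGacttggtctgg

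Among genes enriched in neither region, the highest interactions were in Mei1 (1.31 ± 0.19), Fam196b (1.20 ± 0.27) and Plk5, a polo-like kinase (1.10 ± 0.16), and the lowest in Ankrd35 (-1.32 ± 0.19), Abi3bp, an extracellular matrix protein (-1.28 ± 0.33), and Rab37, a small GTPase (-1.27 ± 0.23). Plk5 fell in both regions, from a median of 20.5 to 5.25 CPM in striatum and from 16.4 to 1.82 in cortex, so that a regional difference of 0.42 ± 0.10 became 1.51 ± 0.12. Fam196b rose in both, from 4.07 to 15.5 CPM in striatum and from 2.55 to 4.01 in cortex.

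In 131 genes the interaction passed the test and the genotype effects passed it in opposite directions, 67 with a fall in striatum and a rise in cortex and 64 the reverse. Scrn1, secernin 1, had the smallest interaction p of these: it stood at 420, 439 and 452 CPM in wild-type and 265, 325 and 347 in R6/2 striatum, and at 244, 256 and 272 and 291, 312 and 332 in cortex. The wild-type regions were apart and the R6/2 regions overlapped. Its regional difference was 0.76 ± 0.03 in wild-type and 0.04 ± 0.03 in R6/2 mice (interaction -0.72 ± 0.05, edgeR adjusted p = 1.04e-07). St8sia3, a brain sialyltransferase, had -0.89 ± 0.07 (1.06e-06) and kept a difference of 0.72 ± 0.05. Evc2, a ciliary component of hedgehog signalling, went the other way, with 1.44 ± 0.10 (1.11e-07), a rise from a median of 5.34 to 6.88 CPM in striatum and a fall from 21.2 to 9.05 in cortex.

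In lists of genes that respond to disease or activity the interaction counts stand against 9.15% over all genes. Of 19 interferon response genes 18 rose in striatum and 18 in cortex, with medians of 1.42 and 1.21. Of 19 immediate early genes the interaction was lower in Egr2 (-1.10 ± 0.22) and Jun and higher in Arc (0.58 ± 0.17) and Fosl2. Of 19 clock genes Npas2 (-0.52 ± 0.07), Arntl and Cry1 were lower and Bhlhe40 (0.61 ± 0.13) higher, and of 22 cholesterol synthesis genes 3 were lower, among them Srebf2 (-0.39 ± 0.08) and Idi1 (-0.31 ± 0.07). These counts move: without R6/2 male 4, 4 immediate early genes were lower and 2 higher, 4 clock genes lower and 5 higher, and 6 cholesterol synthesis genes lower and 1 higher. In males alone 0 passed in each of these 3 lists, and with library totals cholesterol synthesis genes were lower in 1 and higher in 2.

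Markers of other cells also stand against the 9.15% over all genes. Of 12 oligodendrocyte genes Mobp (-0.41 ± 0.10) and Ugt8a were lower, and 6 of the 12 without R6/2 male 4, but 0 with library totals, with FPKM values, without the mouse as a block, in either sex alone and without the mice of the other column form. Their summed level ran from 7090 to 12390 CPM in wild-type and from 5401 to 8623 in R6/2 striatum, and from 4275 to 5486 and from 3458 to 4283 in cortex. Of 14 astrocyte genes Aqp4 was lower (-0.34 ± 0.10) and none higher, and with library totals or FPKM values 0 were lower and 2 higher. The interaction passed the test in 0 of 6 genes of oligodendrocyte precursors, 11 of microglia, 10 of endothelium and pericytes and 9 of choroid plexus and ependyma by edgeR; an unadjusted p under 0.05 was seen in 2, 0, 1 and 0, and DESeq2 called 1, 0, 0 and 0. Without R6/2 male 4 the counts were 1, 0, 1 and 0. Of 8 genes of thalamus Rgs16 was higher, of 7 of globus pallidus and basal forebrain Etv1, and of 6 of hippocampus Dsp, C1ql2 and Wfs1. In the thalamus list 0 were higher in either sex alone, without the mouse as a block and without the mice of the other column form. In the pallidal list 0 were higher in males, and 0 were higher and 1 lower without the mice of the other column form. Of the hippocampal genes 1 to 3 were higher over the alternatives, 2 without R6/2 male 4 and 1 without wild-type female 3; the summed hippocampal level ran from 142 to 196 CPM in R6/2 and from 195 to 246 in wild-type cortex. The summed choroid plexus level ran from 16.6 to 1192 CPM in R6/2 and from 26.2 to 1057 in wild-type cortex. The part of neighbouring tissue in the results was not tested.

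Whether the regions drew together as a whole depended on the mice used to define a regional gene. With classes set in wild-type mice (at least 1 log2 unit, adjusted p under 0.05), the interaction was lower in 234 and higher in 6 of 821 striatum-enriched genes (28.5% and 0.731%), and higher in 115 and lower in 3 of 1023 cortex-enriched genes (11.2% and 0.293%). The median regional difference was 1.49 in wild-type and 1.11 in R6/2 mice in the former and -1.44 and -1.20 in the latter. These classes use the wild-type libraries that enter the interaction, so their direction is partly fixed by the choice. With classes set in the 16 dosed R6/2 mice, which share no library with it but share the genotype of 1 side, the interaction was lower in 74 and higher in 28 of 523 striatum-enriched genes (14.1% and 5.35%). It was higher in 20 and lower in 21 of 907 cortex-enriched genes (2.21% and 2.32%), both under the share over all genes.

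**Figure D4:**
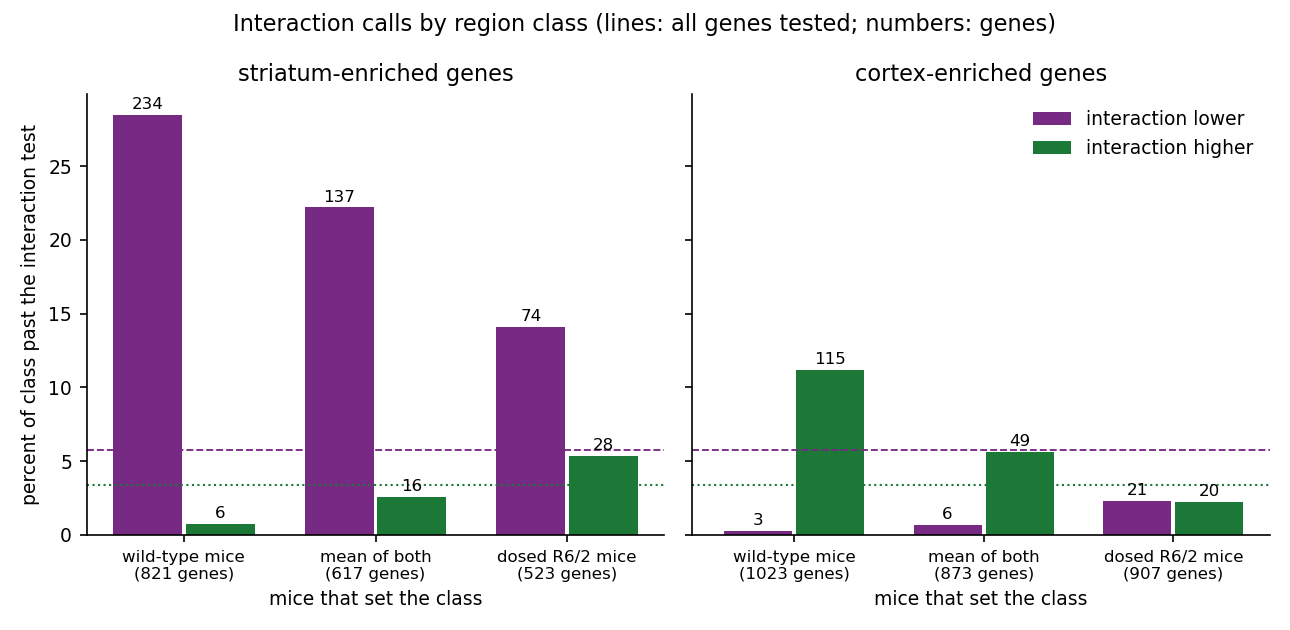
Percent of striatum-enriched (left) and cortex-enriched genes (right) whose interaction passed the test, lower (purple) or higher (green), by the mice that set the class; numbers over bars count genes, and lines give the share over all 17576 genes (dashed, lower, 5.77%; dotted, higher, 3.38%). The lower share of striatum-enriched genes stays above its line with each choice. With classes set in dosed R6/2 mice their higher share is above its line too (5.35%). The higher share of cortex-enriched genes is above its line with 2 of 3 choices. Both of these choices use wild-type libraries that enter the interaction.

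With classes set on the mean of both kinds of mice, an alternative chosen after the data were seen, 137 of 617 striatum-enriched genes were lower and 16 higher, and 49 of 873 cortex-enriched genes were higher and 6 lower. These classes too use wild-type libraries that enter the interaction, so their direction is also partly fixed by the choice. In the dosed classes the striatum-enriched genes were more often lower than higher in each of 13 alternatives, while for cortex-enriched genes the larger count changed sides, from 4 higher and 22 lower in females to 29 higher and 12 lower without the 4 wild-type mice of the other column form.

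A single value per mouse gave no separation. The regional slope is the slope of a mouse's striatum minus cortex profile over 17576 genes on the mean profile of the 16 dosed R6/2 mice, which are in neither group. It was 1.02 ± 0.168 (SD, n = 8; 0.796 to 1.28) in wild-type and 0.952 ± 0.146 (0.725 to 1.14) in R6/2 mice. The difference of -0.0647 was smaller than the spread within either genotype (two-sided exact permutation test over 12870 assignments, p = 0.42), and the groups overlapped. On the profile of the wild-type mice, with each wild-type mouse scored against the others, the slope was 0.955 ± 0.169 and 0.736 ± 0.0994; this axis is built from 1 of the groups compared and was not tested. Neither axis is neutral, since each gives weight to the differences its own genotype has. A loss of regional identity over the transcriptome as a whole was not shown on the axis of dosed R6/2 mice. That axis gives little weight to a difference that R6/2 mice have already lost, so it cannot settle the question.

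**Figure D5:**
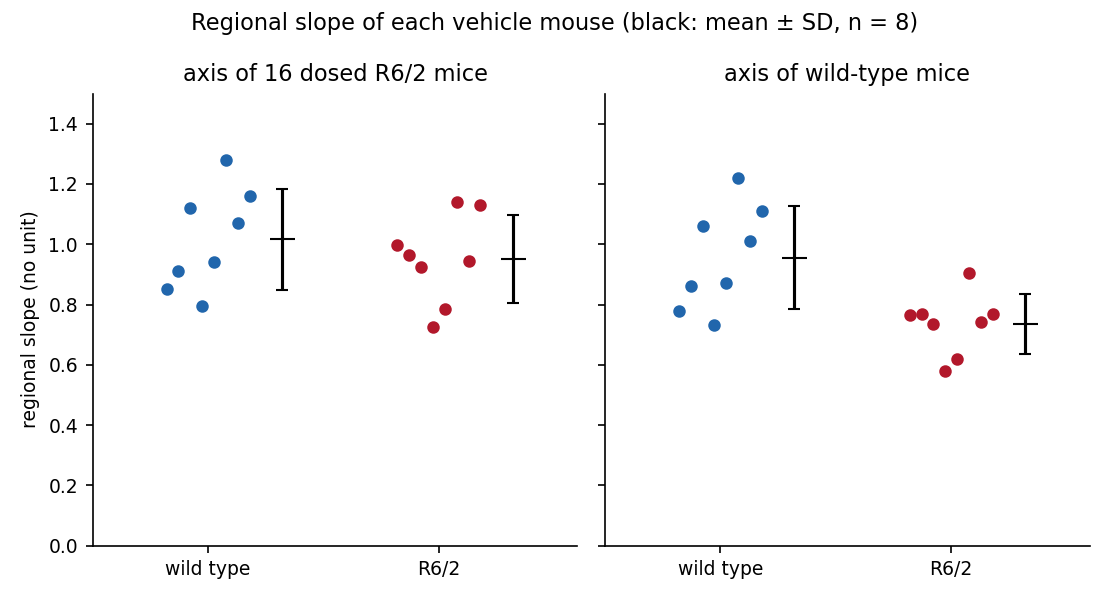
Regional slope of each vehicle mouse (no unit; n = 8 per genotype) on the axis of the 16 dosed R6/2 mice (left) and on the axis of wild-type mice (right); black, mean ± SD. The groups overlap in both panels, with means of 1.02 and 0.952 on the left and 0.955 and 0.736 on the right.

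In the dosed R6/2 mice the regional differences were set beside those of R6/2 mice on vehicle. The interaction of dose with region passed the test in 0 of 18054 genes (0%) at 30 mg/kg and in 0 (0%) at 100 mg/kg by edgeR, with unadjusted p under 0.05 in 394 and 423 genes and a lowest adjusted p of 0.984 and 1. The regional difference of Cnr1 was -0.10 at 30 mg/kg and -0.16 at 100 mg/kg, that of Adcy5 1.74 and 1.51, and that of Lamp5 0.95 and 0.69. For the 22 genes of both pathways the median was 2.51 and 2.19, against 2.23 in R6/2 and 3.21 in wild-type mice on vehicle. For the 16 genes of cortical excitatory neurons it was -2.90 and -1.97, against -2.20 and -2.04. Both doses were compared with the same vehicle mice, and a test that makes no call does not show that the doses left the regional difference as it was.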

How the data were processed

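Per the labels, RNA from 5 tissues of 32 mice was sequenced, and CASAVA 1.8.2 is named in the submitters' processing notes; the labels name no aligner, quantifier or genome build. The authors deposited expected counts per gene (66.2% of values whole) and FPKM values. Expected counts were rounded, filtered with filterByExpr and scaled by TMM. The interaction was fitted with edgeR 4.0.16 (R 4.3.3) over 32 libraries with mouse as a block (14 residual degrees of freedom), adjusted by the Benjamini-Hochberg method over all genes tested. The genotype effect per region used 32 libraries (4 arms) with sex as a term. CPM values are TMM-scaled; single-mouse differences add 0.05 CPM. FPKM values were tested with limma 3.58.1 on log2(value + 0.1) at a mean of at least 0.5, and DESeq2 1.42.0 was an alternative. The same animal number marks 1 mouse in the labels; libraries of a mouse deviated together, with correlations from 0.208 to 0.6 in 16 mice; the best match was the own mouse in all but R6/2 male 4, with 0.217 for its own and 0.439 for another mouse. Title replicate numbers do not pair the tissues. On data simulated from the fit over 17440 genes, 95% of changes of 1 and 65% of changes of 0.5 (log2) were recovered, with 7 wrong calls. Changes were planted in 100 genes per size, all at a mean log2 CPM of at least 1, with every other interaction set to 0. Genes were drawn independently, so the rates do not cover genes of lower counts or a library of low RNA quality. Symbols matched 42462 of 43432 gene IDs. The 29 named genes are the 7 lowest and 3 highest interactions among striatum-enriched genes, the 7 highest and 3 lowest among cortex-enriched genes, the 3 highest and 3 lowest among others, and the 3 smallest p-values with opposite genotype effects, at a mean log2 CPM of at least 1, passing over predicted genes. The members and the 24 gene lists were chosen with earlier results of these data known. Some members of the lists, included in the counts, are not reported here by name.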

Additional observations from a re-analysis of the deposited data

Results flagged for a closer look

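The genotype effect differed between striatum and cortex in 1608 genes, and in 131 of these both effects passed the test in opposite directions. Single mice or libraries stood far from the rest of their group of 8 in 12 of 72 groups examined, where chance gives about 1 in 20. For the striatum minus cortex difference (log2), these were R6/2 male 1 in Abhd11os (0.64), R6/2 male 4 in Clspn (1.15) and in Cnr1 (-0.90), R6/2 male 2 in Tspan11 (-0.21), wild-type female 4 in Abi3bp (2.21) and R6/2 male 3 in Evc2 (0.0049). For library quality, the share of counts from long transcripts stood apart in the striatum of R6/2 male 4 (20.77%) and the cortex of wild-type female 4 (39.04%). The mitochondrial share stood apart in the striatum of R6/2 male 4 (17.49%) and the cortex of R6/2 male 2 (10.45%). The total count stood apart in the cortex of R6/2 male 2 (35.52 M) and the striatum of wild-type female 4 (38.89 M).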

How the results depend on the processing

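Of 13 alternatives, those that leave the interaction count outside 1.5 times its value of 1608 were males alone (185 genes), leaving out R6/2 male 4 (3369) and leaving out the 4 wild-type mice of the other column form (921). Higher interactions numbered 302 in females, 58 in males, 1381 without R6/2 male 4 and 336 without those 4 mice. Lower interactions numbered 566 with library totals, 518 with FPKM values, 127 in males, 1988 without R6/2 male 4 and 585 without those 4 mice. Males alone gave 5431 regional differences in wild-type and 3863 in R6/2 mice; fits of 1 sex hold 4 mice per genotype. For the rest the cause was not tested. Without the mouse as a block, which sets the pairing aside, 1262 genes passed, 464 higher and 798 lower, of which 432 and 780 were shared with the blocked fit. Of 376 values of the 29 named genes under alternatives, 338 kept their call and 38 lost it, 13 of these in males alone, and 0 reversed. The difference in regional slope did not pass the test in any alternative tested (exact permutation p from 0.377 to 0.553).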
